A study of Mus musculus with 10 samples.

Results

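The heat shock chaperones described here are 10 genes chosen by name, Hspa1a, Hspa1b, Hspa8, Hspb1, Hsph1, Dnajb1, Dnaja1, Hsp90aa1, Hsp90ab1 and Hspd1, out of 48471 genes in the deposited transcript tables. All 10 were found and all passed the filter on low counts. Their RNA was measured in 10 RNA-seq libraries of cells flow-sorted by the surface protein CD90. The cells are described as myofibroblastic cancer-associated fibroblasts (myCAFs), the contractile and matrix-producing stromal cells of a tumour. The markers given below bear that name out less well in the CD90- libraries. The 5 CD90- libraries and the 5 CD90+ libraries came from 5 pools of mouse pancreatic ductal adenocarcinoma, with both fractions of a pool from the same tumours, so the comparison asks how the chaperones differed between cells of the same tumours. Both fractions shared the host strain, C57BL/6J, and the tumour source, which was KPC T-LOH organoids placed orthotopically in the pancreas. The organoids supply the cancer cells, and the fibroblasts belong to the host. The titles name 4, 1, 2, 3 and 1 animals in pools 1 to 5, in all 11, whereas the design text counts 5 male mice; n is given as pools. The labels used here state neither the age of the mice nor any other sorting marker.

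Heat shock proteins bind unfolded polypeptides, keep them from aggregating and pass them on for refolding or degradation. In the cytosol, J-domain proteins deliver clients to HSP70, which hydrolyses ATP to hold them, and HSP110 releases the ADP so that HSP70 can let go; HSP90 acts later, on nearly folded clients such as kinases and steroid receptors. Some of these genes are made in every cell, whereas others are induced by heat shock factor 1 (HSF1) when unfolded protein builds up. Of the 10 genes, 9 encode cytosolic proteins, and Hspd1 encodes the chaperonin of the mitochondrial matrix, so the cytosolic label holds for all but Hspd1. Hspa1a and Hspa1b lie on mouse chromosome 17 and encode nearly the same protein. Their annotated transcripts were identical at 92.5% of 2735 aligned bases, and their longest identical run was 638 bases. Because the quantifier has to divide reads between such copies, the pair was summed, which left 9 units.

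The libraries differed in ways that bear on every value. The CD90- libraries held 33.3 to 47.7 M estimated counts (M, mega) and the CD90+ libraries 11.7 to 38.2 M, of which 3.71 to 19.8 M in CD90- and 4.57 to 28.5 M in CD90+ libraries fell on nuclear protein-coding genes. Mitochondrial rRNA took 59.3% ± 17.6 of the gene-assigned counts in CD90- libraries and 26.9% ± 12.8 in CD90+ libraries (SD, n = 5 each), and was higher in CD90- in 5 of 5 pools (exact paired permutation p = 0.0625, the smallest that 5 pools allow). Thy1, the gene of CD90, had 2.07 to 16.0 CPM (counts scaled to library size and composition) in CD90- libraries, against 39.2 to 117 CPM in CD90+ libraries. All 11 fibroblast markers, 10 of them called lower in CD90-, and all 11 myCAF markers, each called lower, were above 0 in both fractions. Their sums were lower in CD90- libraries in 5 of 5 pools, with 5610 to 28214 CPM in CD90- against 43787 to 62393 CPM in CD90+ libraries for the fibroblast list, and 245 to 590 CPM in CD90- against 1154 to 2697 CPM in CD90+ libraries for the myCAF list. All 18 cancer epithelial markers were above 0 in CD90- libraries, with sums of 806 to 3362 CPM. In CD90+ libraries the sums were 192 to 1732 CPM, and Agr2 was at 0. This epithelial sum was higher in CD90- in 5 of 5 pools, and 10 of 17 markers tested were called higher. With lower myCAF and higher epithelial markers, the CD90- libraries bore out the name myCAF less well than the CD90+ libraries. The macrophage sum was 18.2 to 54.7 CPM in CD90- and 8.48 to 14.5 CPM in CD90+ libraries, also higher in 5 of 5 pools, with 1 of 8 markers tested called higher. The endothelial sum was 33.7 to 268 CPM in CD90- and 26.8 to 37.5 CPM in CD90+ libraries, higher in 4 of 5 pools. Of its 7 markers tested, 3 were called higher in CD90-, Cdh5, Tie1 and Pecam1. Kdr was lower in CD90- in 4 of 5 pools without being called. Its means were 18.3 CPM in CD90- and 27.6 CPM in CD90+ libraries. Of all 15377 genes tested, 7.04% were called lower and 5.83% higher in CD90-. CD90- pool 2 stood apart, with an endothelial sum of 268 CPM and a pericyte sum of 160 CPM, where the other CD90- libraries had pericyte sums of 12.0 to 32.7 CPM and the CD90+ libraries 48.5 to 81.2 CPM. The lymphocyte sum was 2.08 to 7.05 CPM in CD90- and 0.786 to 3.79 CPM in CD90+ libraries, with 6 of 8 markers above 0. The part of these other cells and of the mitochondrial rRNA in the chaperone results was not tested, and in such bulk samples fewer cells of a type and less RNA per cell cannot be told apart.

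The stress-inducible HSP70 pair was lower in CD90- libraries, and it was the only one of the 9 units to pass the test. Hspa1a+Hspa1b had 399, 394, 218, 909 and 222 CPM in CD90- libraries of pools 1 to 5, against 1016, 912, 326, 1106 and 757 CPM in CD90+ libraries. Each CD90- library was below the CD90+ library of its own pool, while the groups overlapped because CD90- pool 4 was high and CD90+ pool 3 was low. The means were 428 ± 283 CPM in CD90- and 823 ± 307 CPM in CD90+ libraries (SD, n = 5 each). The log2 fold, CD90- over CD90+ here and throughout, was -1.04 (SE 0.219, 95% interval -1.53 to -0.55, adjusted p = 0.0135 by edgeR's quasi-likelihood test with the pool as a block), or 2.06 times lower in CD90-. Within pools the log2 difference was -1.35, -1.21, -0.58, -0.28 and -1.77 in pools 1 to 5. Of all 15377 genes tested, 12.9% were called at an adjusted p under 0.05, 7.04% lower and 5.83% higher in CD90-; 1 call among 9 units is near that background. The call did not hold without the block (log2 fold -0.94, adjusted p = 0.219), without pool 1 (-0.96, adjusted p = 0.0796) or without pool 2 (adjusted p = 0.0516). In a fit that also held each library's share of mitochondrial rRNA, the log2 fold was -2.17 (unadjusted p = 0.00557, adjusted p = 0.752), and edgeR called none of all genes tested (880 at an unadjusted p under 0.05).

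**Figure D1:**
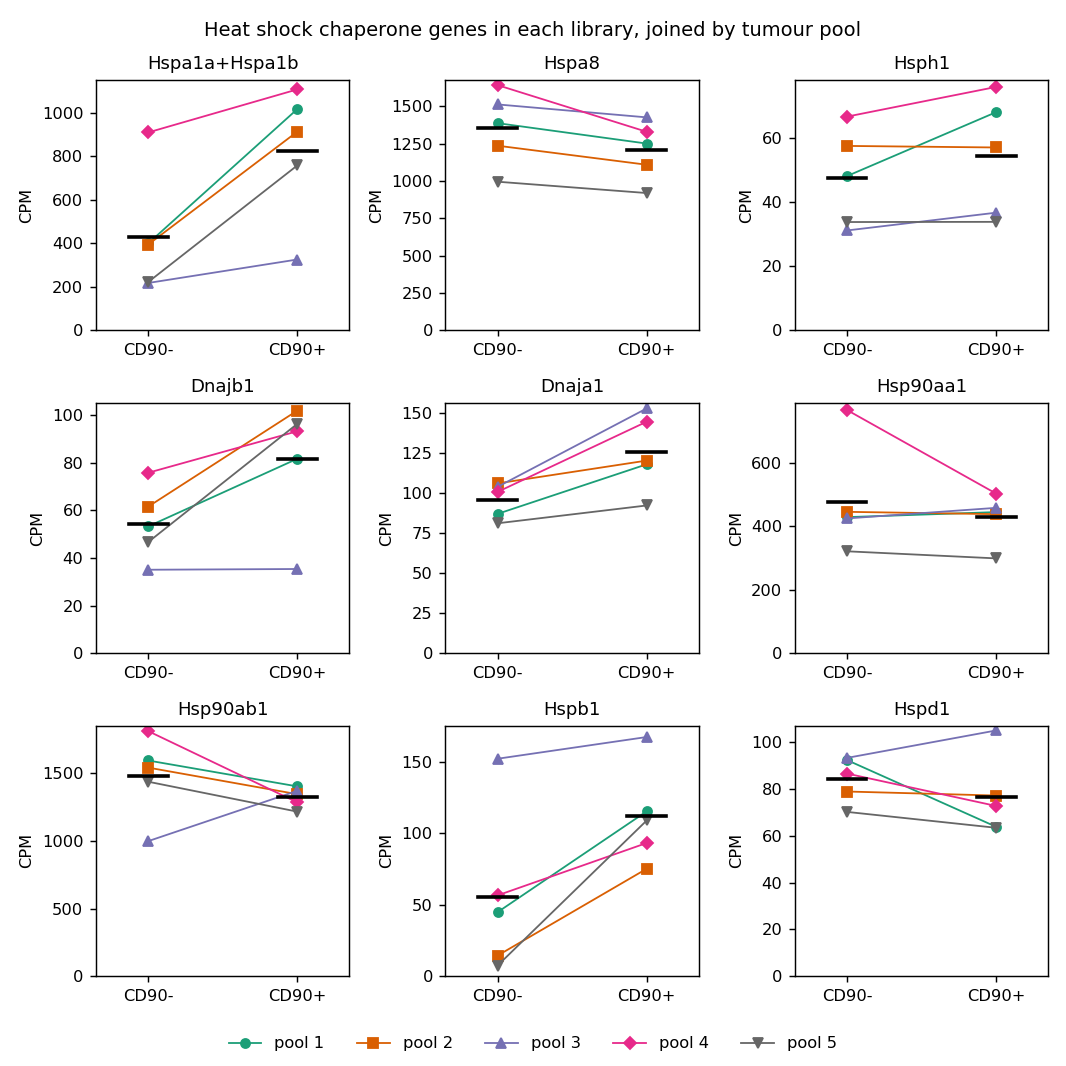
Level of each chaperone unit in every library, in CPM on the vertical axis of each panel, with CD90- left of CD90+, lines joining the fractions of a pool and black bars at the group means. Lines for Hspa1a+Hspa1b, Dnajb1, Dnaja1 and Hspb1 run higher in CD90+ in 5 of 5 pools, those for Hspa8 higher in CD90- in 5 of 5 pools, and the groups overlap for every unit.

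The promoter windows of the pair are shown because both genes are known HSF1 targets and because the copies are nearly identical upstream of the gene as well. RefSeq windows on GRCm38.p6 run from 250 bases before to 50 bases after the annotated start. The Hspa1a window is chr17:34972107-34972406 on the minus strand and the Hspa1b window is chr17:34959189-34959488 on the minus strand, printed 5′ to 3′ along the gene, and 296 of their 300 bases are identical. Capitals mark the heat shock element searched for, GAANNTTC, which reads the same on both strands.
Hspa1a: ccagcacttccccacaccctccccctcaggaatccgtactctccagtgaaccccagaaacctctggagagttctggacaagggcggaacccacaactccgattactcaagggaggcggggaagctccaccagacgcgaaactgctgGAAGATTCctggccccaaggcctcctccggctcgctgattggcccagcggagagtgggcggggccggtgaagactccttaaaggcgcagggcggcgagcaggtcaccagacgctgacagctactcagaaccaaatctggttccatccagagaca
Hspa1b: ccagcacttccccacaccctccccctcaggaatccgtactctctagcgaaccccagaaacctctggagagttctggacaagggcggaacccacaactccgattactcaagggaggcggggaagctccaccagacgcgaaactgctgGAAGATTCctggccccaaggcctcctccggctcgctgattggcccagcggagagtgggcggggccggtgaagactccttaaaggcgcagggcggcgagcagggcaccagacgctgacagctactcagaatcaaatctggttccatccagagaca
In both windows the element starts 104 bases before the start. It occurs in 7.86% of all 32851 RefSeq promoter windows. A match is a description of the letters and not evidence of a bound site.

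Fitted separately, both copies were lower in CD90-. Hspa1a averaged 187 ± 118 CPM in CD90- and 423 ± 175 CPM in CD90+ libraries, lower in 5 of 5 pools (log2 fold -1.28, SE 0.24, adjusted p = 0.0092 by edgeR). Hspa1b averaged 241 ± 172 CPM in CD90- and 401 ± 138 CPM in CD90+ libraries, lower in 4 of 5 pools (log2 fold -0.86, SE 0.22, adjusted p = 0.0323 by edgeR). Hspa1a made up 43.5% ± 9.45 of the pair's reads in CD90- libraries and 50.7% ± 4.13 in CD90+ libraries (exact paired permutation p = 0.125). The split between the copies is uncertain, since 63.8% of the 31-base words of the Hspa1a transcript also occur in Hspa1b.

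Hspa8, the constitutive HSP70 of the cytosol, did not pass the test, and its values were the higher in CD90-. It had 1388, 1237, 1514, 1643 and 996 CPM in CD90- libraries of pools 1 to 5, against 1252, 1110, 1427, 1330 and 920 CPM in CD90+ libraries. Each CD90- library was above its CD90+ partner, as were those of 13.5% of all genes, and the groups overlapped (log2 fold 0.16, SE 0.142, 95% interval -0.15 to 0.48, adjusted p = 0.528). The ratio of inducible to constitutive HSP70 reads does not depend on how the libraries are scaled. It was 0.287, 0.318, 0.144, 0.553 and 0.223 in CD90- libraries, against 0.812, 0.822, 0.228, 0.832 and 0.823 in CD90+ libraries. In CD90+ libraries 4 of the 5 ratios lay between 0.812 and 0.832, and only pool 3 was far below, whereas the CD90- ratios were spread. The log2 ratio differed by -1.20 (SD 0.558 over 5 pools), lower in CD90- in 5 of 5 pools, with an exact paired permutation p of 0.0625 and an adjusted p of 0.25 over the 4 ratios compared.

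CD90- pool 3, with the lowest ratio, also had the highest fibroblast marker sum of the CD90- libraries (28214 CPM) and the lowest mitochondrial rRNA share of them (35.6%). CD90+ pool 3 had the lowest fibroblast marker sum of the CD90+ libraries (43787 CPM) and the lowest mitochondrial rRNA share of all 10 libraries (10.5%). CD90- pool 4, with the highest ratio of the CD90- libraries, had the highest mitochondrial rRNA share (84.4%) and the fewest nuclear protein-coding counts (3.71 M). The part of these measures in the ratio was not tested.

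The division of Hspa8 reads between its transcripts did not differ past adjustment. Hspa8-202 is an annotated transcript that lacks 57 bases (19 codons) at the start of an internal exon. Its first exon is 318 bases shorter than that of Hspa8-201. Hspa8-202 took 34.4%, 34.01%, 32.1%, 30.1% and 33.4% of Hspa8 reads in CD90- libraries of pools 1 to 5, against 44.9%, 41.1%, 34.1%, 40.0% and 33.7% in CD90+ libraries. The share was lower in CD90- in 5 of 5 pools, though by little in pools 3 and 5. It averaged 32.8% ± 1.74 in CD90- and 38.8% ± 4.78 in CD90+ libraries (exact paired permutation p = 0.0625, adjusted p = 0.667 over 16 transcripts). The stretch is shown, in capitals with 20 bases of Hspa8-201 on either side, from GENCODE M21 on GRCm38, chr9:40802739-40802795 on the plus strand.
Hspa8: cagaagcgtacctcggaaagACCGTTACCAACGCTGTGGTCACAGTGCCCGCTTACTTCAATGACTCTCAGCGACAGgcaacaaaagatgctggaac

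Hsph1 encodes HSP105, the HSP110 protein that frees ADP from HSP70, and its total level did not pass the test. It had 48.2, 57.6, 31.2, 66.7 and 33.8 CPM in CD90- libraries of pools 1 to 5, against 68.2, 57.1, 36.8, 76.0 and 33.9 CPM in CD90+ libraries. The fractions of pools 2 and 5 were nearly level (log2 fold -0.18, SE 0.143, 95% interval -0.50 to 0.14, adjusted p = 0.475). The gene makes a full HSP105 alpha and a shorter, heat-inducible beta form, which in mouse lacks 1 coding exon of 132 bases, or 44 codons. Hsph1-201 is the annotated transcript without that exon, and Hsph1-205, Hsph1-209 and Hsph1-211 carry it. The exon is shown in capitals with 20 bases on either side, from Hsph1-205 in GENCODE M21 on GRCm38, chr5:149623465-149623596 on the minus strand.
Hsph1: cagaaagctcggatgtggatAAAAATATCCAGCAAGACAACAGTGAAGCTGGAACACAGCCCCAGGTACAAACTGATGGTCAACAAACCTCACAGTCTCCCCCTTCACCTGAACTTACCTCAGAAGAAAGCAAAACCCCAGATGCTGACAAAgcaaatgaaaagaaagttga
Of the estimated reads on these 4 transcripts, Hsph1-201 took 2.27%, 0%, 4.14%, 22.1% and 10.8% in CD90- libraries of pools 1 to 5, against 37.4%, 44.3%, 17.7%, 46.5% and 0% in CD90+ libraries. The share was lower in CD90- in pools 1 to 4 and higher in pool 5, whose CD90+ library had the fewest such reads, 309, where the other CD90+ libraries had 1067 to 2088. The CD90- libraries had 515 to 1312 such reads, with 923 in pool 2, whose share was also 0%. The mean shares were 7.86% ± 8.92 in CD90- and 29.2% ± 19.9 in CD90+ libraries, and the difference of -21.3 percentage points had an exact paired permutation p of 0.125. These shares are the quantifier's estimates for overlapping transcripts, not counts of reads across a splice junction, and a listed 0 can be a failed estimate.

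**Figure D2:**
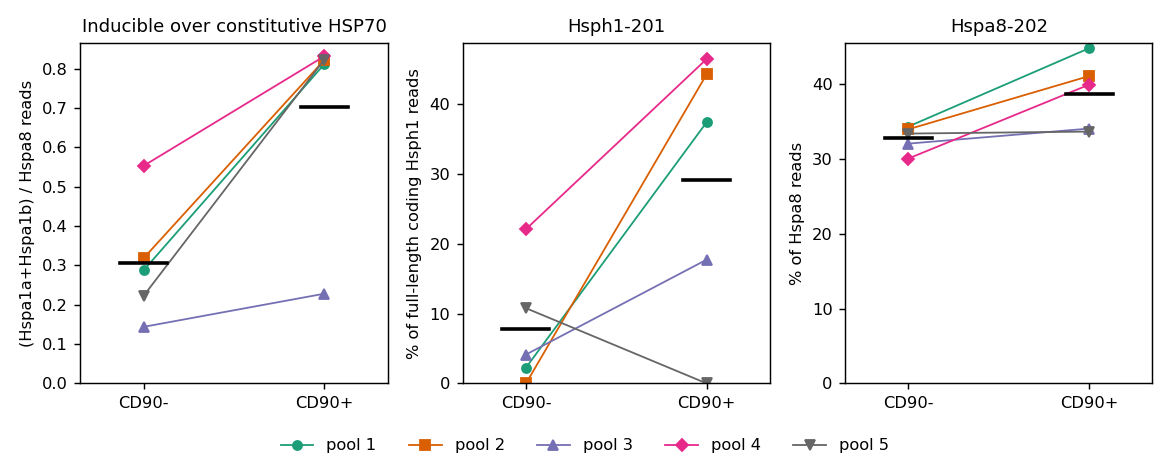
Left, reads of Hspa1a+Hspa1b divided by reads of Hspa8; middle, percent of reads of the 4 full-length coding Hsph1 transcripts on Hsph1-201; right, percent of Hspa8 reads on Hspa8-202, each with CD90- left of CD90+, lines joining the fractions of a pool and black bars at the group means. The ratio and the Hspa8-202 share are lower in CD90- in 5 of 5 pools, and the Hsph1-201 share in 4 of 5.

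Both J-domain members were lower in CD90- in 5 of 5 pools without passing the test; 14.5% of all genes were lower in 5 of 5 pools. Dnajb1, the HSP40 that is induced with HSP70 and stimulates its ATPase, had 53.3, 61.6, 35.1, 75.8 and 46.7 CPM in CD90- libraries of pools 1 to 5, against 81.7, 102, 35.4, 93.3 and 96.4 CPM in CD90+ libraries. The fractions of pool 3 were level and those of pool 5 differed most (log2 fold -0.54, SE 0.171, 95% interval -0.92 to -0.16, adjusted p = 0.0668 by edgeR). Dnajb1 passed the threshold without pool 3 (log2 fold -0.67, adjusted p = 0.0278), with DESeq2 (adjusted p = 0.0391), with limma-voom (adjusted p = 0.0482) and with no filter on low counts (adjusted p = 0.0368). Dnaja1, a farnesylated J-domain protein that is more evenly expressed, had 86.9, 106, 104, 101 and 81.0 CPM in CD90- libraries, against 118, 120, 153, 144 and 92.1 CPM in CD90+ libraries. The differences between its fractions were of like size in pools 1, 3 and 4 and smaller in pools 2 and 5 (log2 fold -0.38, SE 0.132, 95% interval -0.67 to -0.08, adjusted p = 0.0944). The log2 ratio of Dnajb1 to Dnaja1 differed by -0.16 between the fractions (exact paired permutation p = 0.562, adjusted p = 0.75).

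The HSP90 genes showed no difference that passed the test. Hsp90aa1, the more inducible cytosolic HSP90, had 429, 445, 425, 766 and 321 CPM in CD90- libraries of pools 1 to 5, against 445, 438, 458, 503 and 299 CPM in CD90+ libraries. Only pool 4 showed a clear difference, with its CD90- library the highest of all 10 (log2 fold 0.11, SE 0.15, 95% interval -0.22 to 0.45, adjusted p = 0.692). Without pool 4 the log2 fold was -0.041. Hsp90ab1, the constitutive form, had 1593, 1540, 997, 1810 and 1436 CPM in CD90- libraries, against 1402, 1344, 1369, 1284 and 1215 CPM in CD90+ libraries. It was higher in CD90- in 4 pools and lower in pool 3 (log2 fold 0.13, SE 0.174, 95% interval -0.25 to 0.52, adjusted p = 0.689). The log2 ratio of Hsp90aa1 to Hsp90ab1 differed by -0.017 (exact paired permutation p = 0.875).

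Hspb1 had the widest spread and the lowest fold of the units. It encodes HSP27 (Hsp25 in mouse), a small heat shock protein that holds unfolded clients without ATP and binds actin filaments. Its 300-base RefSeq window on GRCm38.p6, chr5:135887669-135887968 on the plus strand, is shown because it holds the element of the Hspa1a window more than once, in capitals, 117 and 97 bases before the start.
Hspb1: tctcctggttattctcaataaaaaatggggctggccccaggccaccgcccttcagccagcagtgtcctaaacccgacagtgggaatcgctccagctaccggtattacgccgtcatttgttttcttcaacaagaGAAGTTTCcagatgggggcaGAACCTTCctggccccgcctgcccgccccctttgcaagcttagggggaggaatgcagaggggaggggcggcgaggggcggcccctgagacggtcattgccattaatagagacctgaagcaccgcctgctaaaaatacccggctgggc
Hspb1 had 44.9, 14.5, 152, 56.6 and 7.54 CPM in CD90- libraries of pools 1 to 5, against 115, 75.2, 167, 93.3 and 109 CPM in CD90+ libraries. It was lower in CD90- in 5 of 5 pools, by a log2 difference that ran from -0.14 in pool 3 to -3.84 in pool 5. The means were 55.1 ± 58.0 CPM in CD90- and 112 ± 34.6 CPM in CD90+ libraries, and the log2 fold of -1.64 (SE 0.527, 95% interval -2.87 to -0.40) had an adjusted p of 0.0901. It passed the threshold with DESeq2 (adjusted p = 0.00043), with limma-voom (adjusted p = 0.0289) and with no filter on low counts (edgeR, adjusted p = 3.5e-14), but under no other alternative tried. With no filter its SE was 0.204 in place of 0.527, so that p takes little account of the spread of Hspb1 between pools. Its log2 fold was -1.02 without the block and -3.64 in the fit that held the share of mitochondrial rRNA.

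Hspd1, the mitochondrial HSP60, did not pass the test. A RefSeq window of Hspd1, at chr1:55087883-55088182 on the minus strand of GRCm38.p6, overlaps that of Hspe1, its co-chaperonin, which is transcribed the other way. The window is shown because it is 1 of the 2 members' promoters, with that of Hsph1, that hold an element of 3 units, in which GAA and TTC alternate with 2 bases between them, searched on both strands and starting with either. The capitals mark matches of both forms, which overlap each other and hold the GAANNTTC. An element of 3 units occurs in 0.603% of all RefSeq windows. The other Hspd1 window, chr1:55088194-55088493 on the minus strand, holds no match of either kind. In Hsph1 the match of 3 units starts after the annotated start, by 36 or 15 bases depending on the window.
Hspd1: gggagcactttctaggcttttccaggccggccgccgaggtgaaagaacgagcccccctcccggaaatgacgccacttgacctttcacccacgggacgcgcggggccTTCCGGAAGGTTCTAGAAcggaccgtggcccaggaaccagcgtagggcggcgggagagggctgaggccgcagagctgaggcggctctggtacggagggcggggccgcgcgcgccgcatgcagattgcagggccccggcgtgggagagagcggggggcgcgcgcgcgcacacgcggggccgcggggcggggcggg
The level of Hspd1 was 92.3, 78.9, 93.2, 86.5 and 70.2 CPM in CD90- libraries of pools 1 to 5, against 63.8, 77.1, 105, 72.7 and 63.4 CPM in CD90+ libraries. It was higher in CD90- in 4 pools and lower in pool 3 (log2 fold 0.16, SE 0.145, 95% interval -0.17 to 0.48, adjusted p = 0.552). The log2 ratio of Hspd1 to Hspe1 differed by 0.11 (exact paired permutation p = 0.438, adjusted p = 0.75). Of the 7 members with a RefSeq window, 6 held the GAANNTTC element in at least 1 window and Dnajb1 in none; for Hspa8, Hsp90aa1 and Hsp90ab1 no window was used.

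**Figure D3:**
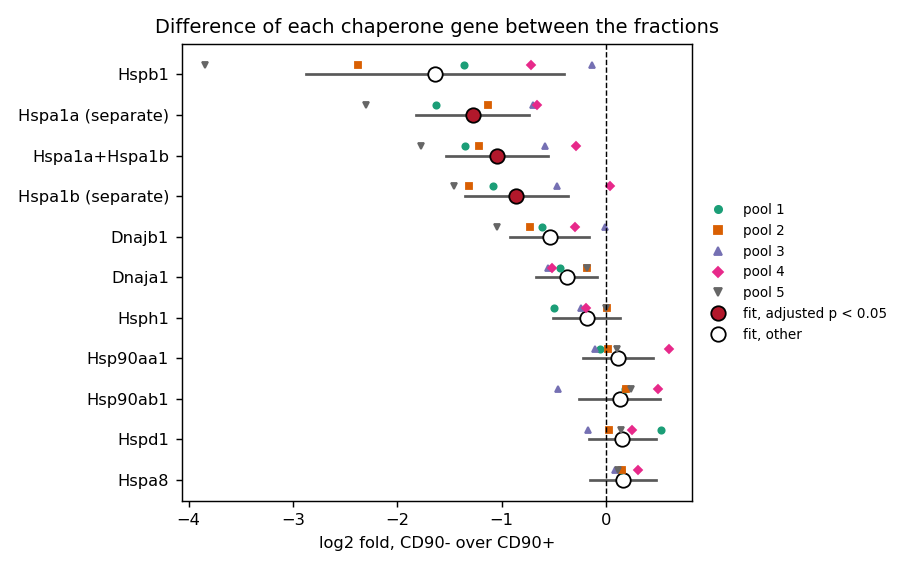
Log2 fold of each unit, CD90- over CD90+, on the horizontal axis: large circles with bars are the fitted fold and its 95% interval, small symbols the 5 within-pool differences, and filled circles have an adjusted p under 0.05. Only the inducible HSP70 genes, summed (-1.04) or separate (-1.28 and -0.86), are filled; Hspb1 lies lower, at -1.64, with the widest interval.

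Per unit of transcript length, the constitutive chaperones were the most abundant. On TPM rescaled to nuclear protein-coding genes, Hsp90ab1 had 3341 ± 625 in CD90- and 2849 ± 193 in CD90+ libraries, and Hspa8 3270 ± 483 in CD90- and 2824 ± 507 in CD90+ libraries. These 2 levels did not differ beyond their spread, with Hsp90ab1 the higher in 7 of 10 libraries. Hsp90aa1 followed with 1716 ± 660 TPM in CD90- and 1582 ± 388 TPM in CD90+ libraries, below Hspa8 in all 10 libraries, and Hspa1a+Hspa1b with 611 ± 344 TPM in CD90- and 1093 ± 427 TPM in CD90+ libraries, below Hsp90aa1 in all 10. Dnaja1 came next with 497 ± 52.2 TPM in CD90- and 638 ± 94.7 TPM in CD90+ libraries. Hspb1 had 311 ± 334 TPM in CD90- and 571 ± 210 TPM in CD90+ libraries, and Hspd1 216 ± 23.4 TPM in CD90- and 180 ± 54.0 TPM in CD90+ libraries. The least abundant were Hsph1, with 144 ± 64.7 TPM in CD90- and 159 ± 81.3 TPM in CD90+ libraries, and Dnajb1, with 91.2 ± 20.9 TPM in CD90- and 129 ± 42.2 TPM in CD90+ libraries. From Hspa1a+Hspa1b down, each was above the next in 7 to 9 of 10 libraries, so neighbours in this order overlapped. The TPM of Hsp90aa1 and Hsph1 include short transcripts with retained introns, which weigh heavily per length. The place of Hsp90aa1 above Hspa1a+Hspa1b in all 10 libraries rests on them. Before rescaling, CD90+ pool 2 had 53.43 TPM on Hsp90aa1-206, annotated as a retained intron. Its coding Hsp90aa1-201 and Hsp90aa1-202 had 24.36 and 4.94 TPM, below Hspa1a alone with 34.15 TPM. In CD90- pool 3, Hsp90aa1-201 alone had 35.69 TPM, above Hspa1a (9.79 TPM) and Hspa1b (12.245 TPM) together. On coding transcripts this order therefore differed between libraries. The place of Dnaja1 above Hspd1 also rests on short transcripts. Before rescaling, CD90- pool 1 had 8.84 TPM on the 916-base Dnaja1-205, annotated as coding, and 1.79 TPM on the 3376-base Dnaja1-201. Hspd1-201 had 6.76 TPM in that library, and it was above Dnaja1-201 in every library. Together the 10 genes made up 1.02% ± 0.162 of nuclear protein-coding TPM in CD90- libraries and 1.00% ± 0.141 in CD90+ libraries (exact paired permutation p = 0.625). Of nuclear protein-coding counts they made up 1.06% ± 0.198 in CD90- and 0.940% ± 0.0928 in CD90+ libraries, higher in CD90- in 4 of 5 pools (exact paired permutation p = 0.125).

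The units varied unequally over the 10 libraries. The SD of log2 CPM was 1.47 for Hspb1 and 0.92 for Hspa1a+Hspa1b, then 0.58 for Dnajb1 and 0.48 for Hsph1, and 0.23 to 0.37 for the other 5. Likeness between 2 profiles was measured as the root mean square difference of log2 CPM, each centred on its own mean, over the 10 libraries. A small value means profiles that lie close. The profiles were not scaled, so the value also depends on how much each gene varies, and 2 genes that vary little score small. Dnajb1 was the member closest to Hspa1a+Hspa1b, at 0.438, and only 2 of 6820 genes outside the members were closer. Hsph1 was next at 0.592, with 48 genes closer, whereas Hspa8 was at 0.915 with 2309 genes closer. Of the 36 pairs of units, with a median of 0.575, the closest were Hspa8 and Hspd1 at 0.179 and Hspa8 and Hsp90aa1 at 0.197. These genes are all among the 5 units with the smallest SD.

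The genes outside the members with profiles closest to Hspa1a+Hspa1b were Ccn1 (0.415), Tpm2 (0.422), Myh9 (0.468), Pcsk5 (0.477), Ccdc124 (0.484) and Zfp651 (0.489), where the median over the 6820 genes was 0.982. Ccn1 encodes a secreted matricellular protein, Tpm2 a tropomyosin of actin filaments, Myh9 a non-muscle myosin heavy chain and Pcsk5 a proprotein convertase. All but Ccdc124 were called lower in CD90-, with log2 folds of -0.92 for Ccn1, -1.27 for Tpm2, -0.95 for Myh9, -1.83 for Pcsk5 and -0.93 for Zfp651; Ccdc124 had -0.61 (adjusted p = 0.060). Tpm2 is also 1 of the 11 myCAF markers.

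Among the other chaperone genes, the relatives and partners of HSP70 and HSP90 showed no call by edgeR. None of the 15 other HSP70, HSP110 and J-domain genes tested was called (median log2 fold -0.15, against 0.036 over all genes), and the one with the smallest p was Hspa4l, an HSP110 relative, with 36.8 ± 17.7 CPM in CD90- and 17.6 ± 9.67 CPM in CD90+ libraries (log2 fold 1.08, SE 0.325, adjusted p = 0.060). In that list 4 genes had an unadjusted p under 0.05 by edgeR, where 4131 of all 15377 genes did. DESeq2 called Hspa4l higher and Dnajb2 lower in CD90-, and limma-voom called Hspa4l higher. Of all 15377 genes, DESeq2 called 3430 and limma-voom 2301, and the counts below are to be read beside these. None of the 17 cochaperones was called (median 0.038), with the smallest p for Fkbp5, an HSP90-binding immunophilin, at a log2 fold of -0.59 (adjusted p = 0.116); 2 had an unadjusted p under 0.05, and DESeq2 and limma-voom called 0. None of the 14 cytosolic chaperonin and prefoldin genes was called (median 0.22), with Cct5, a subunit of the TRiC chaperonin, at 0.55 (adjusted p = 0.0627); 3 had an unadjusted p under 0.05, DESeq2 called Cct5 and Pfdn1 higher in CD90-, and limma-voom called 0. None of the 5 heat shock factors and regulators was called (median -0.29), with Hsbp1, an HSF1-binding protein, at -0.29 (adjusted p = 0.372); 0 had an unadjusted p under 0.05, and DESeq2 and limma-voom called 0.

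Of the 8 lists of other chaperone and stress genes, the other small heat shock proteins had the lowest median. Of the 7 listed, 6 were tested, 2 were called lower, against 7.04% of all genes, and none higher. The median log2 fold was -2.09, and Hspb6 was the only one above 0, at 1.11 (adjusted p = 0.331). In this list 4 genes had an unadjusted p under 0.05, all with negative folds, where 4131 of all 15377 genes had one in either direction. DESeq2 called 5 lower, and limma-voom 1, Hspb8. Of all 15377 genes, DESeq2 called 1808 lower and limma-voom 1157. Hspb8, which works with BAG3 in the autophagy of damaged filamin, had 12.8, 7.98, 44.0, 22.6 and 3.55 CPM in CD90- libraries of pools 1 to 5, against 59.8, 62.2, 56.9, 53.7 and 44.3 CPM in CD90+ libraries. Its groups did not overlap, as for 4.61% of all genes in that direction, and pool 3 again differed least (log2 fold -2.08, SE 0.463, adjusted p = 0.0236). Hspb7, a heart and muscle small heat shock protein, was low throughout, with 2.60 ± 3.43 CPM in CD90- and 7.55 ± 3.57 CPM in CD90+ libraries (log2 fold -2.29, SE 0.577, adjusted p = 0.0287). The Hspb7 call did not hold with limma-voom, and neither call held without the block, without pool 1 or 2, or without pools 4 and 5 together.

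Lists of other compartments also held calls. Of the 8 mitochondrial chaperones and proteases, only Hspa9 (mortalin, the mitochondrial HSP70) was called, and it was higher. The list median was 0.13, and 1 call among 8 genes is near the 5.83% of all genes called higher. Hspa9 had 195, 181, 151, 205 and 139 CPM in CD90- libraries, against 104, 115, 150, 116 and 105 CPM in CD90+ libraries, with pool 3 level (log2 fold 0.56, SE 0.16, adjusted p = 0.0464). The Hspa9 call was lost without the block, with the length offset, with the mitochondrial rRNA covariate, and without pool 1, 2, 4 or 5. Of the 13 endoplasmic reticulum chaperones, 7 were called lower, against 7.04% of all genes, and none higher, with a median log2 fold of -0.53. Those with the smallest p were Dnajb11 (log2 fold -0.74, adjusted p = 0.0123) and Dnajc3 (-0.84, adjusted p = 0.0124), J-domain partners of BiP, and Hsp90b1 (-0.73, adjusted p = 0.0145), the HSP90 of that compartment. The 18 immediate early genes respond within minutes to growth factors and to stress. Of these, 8 were called lower, against 7.04% of all genes, and none higher, with a median of -0.46. Klf4 (log2 fold -1.09, adjusted p = 0.0085), Nr4a1 (-1.04, adjusted p = 0.0113) and Jun (-0.94, adjusted p = 0.0126) had the smallest p. Immediate early genes and inducible HSP70 are both known to respond to tissue dissociation; whether that had a part in these values was not tested. None of the calls named for the mitochondrial, endoplasmic reticulum and immediate early lists held without pool 1 or without pools 4 and 5 together.

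**Figure D4:**
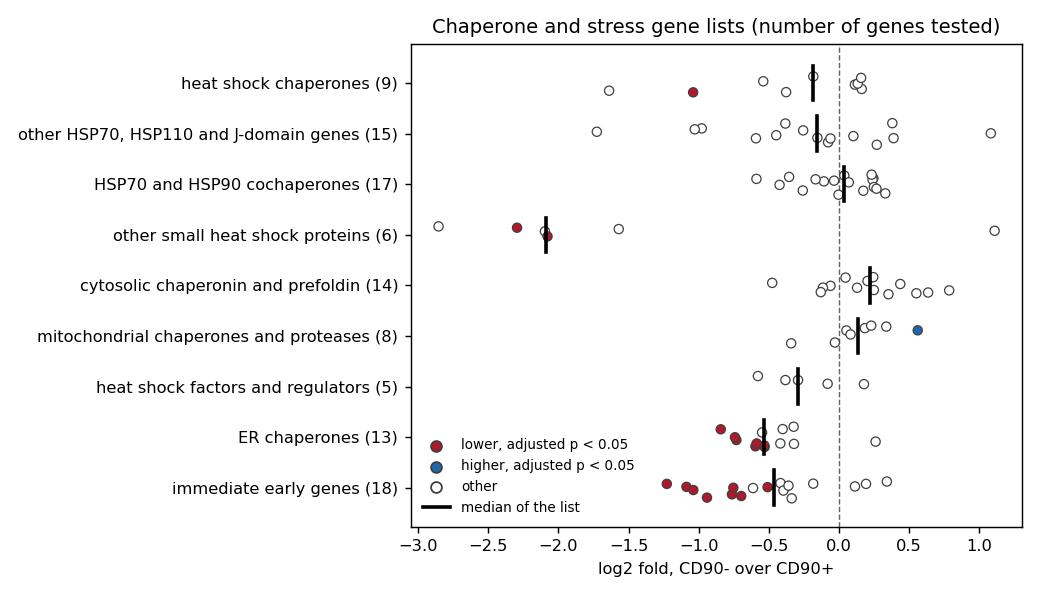
Log2 fold of each gene, CD90- over CD90+, on the horizontal axis, in the 9 heat shock chaperone units and 8 lists of other chaperone and stress genes, with the number of genes tested; black bars are list medians and filled circles have an adjusted p under 0.05. Calls lie in the ER chaperone list (7 lower), the immediate early list (8 lower), the other small heat shock proteins (2 lower) and the mitochondrial list (1 higher), beside 1 among the heat shock chaperones. Of all genes tested, 7.04% were called lower and 5.83% higher.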

How the data were processed

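Per the submitters' processing notes, reads were quantified with Salmon 1.9.0, with GRCm39 and mm39 named as builds; no source used here gives the annotation release, strand setting or bias options. Per the labels' protocols, libraries came from low-input total RNA of varied integrity, not recorded per library, so intervals cover the spread between pools and not these differences. The authors deposited, per transcript, estimated counts, TPM and effective lengths. Transcript identifiers matched GENCODE M21 for 133666 of 144584 transcripts (92.4%), used for names and transcript structure; the others carried 3.63% to 12.1% of a library's counts.

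Estimated counts were summed per gene and rounded, with Hspa1a and Hspa1b as 1 row, and fitted in R 4.3.3 with edgeR 4.0.16 (filterByExpr, TMM, robust glmQLFit and glmQLFTest, pool as a block, Benjamini-Hochberg over 15377 genes, threshold 0.05). Levels between genes used the authors' TPM, rescaled to nuclear protein-coding genes. Ratios and shares were compared by exact two-sided sign flips over 5 pools, whose smallest p is 0.0625; the ratio family held 4 tests and the transcript family 16 (mean share of at least 10%). The block rests on the animal numbers shared in the titles: as a check, the correlation of the paired libraries' deviations was 0.06, 0.00, 0.46, 0.03 and 0.19 over pools 1 to 5. No libraries of a group agreed within counting noise (chi-square per degree of freedom at least 39.2). The alternatives were DESeq2 1.42.0, limma-voom (limma 3.58.1), RLE size factors, no block, no filter, nuclear protein-coding genes only, a length offset, the pair split, the mitochondrial rRNA share as a covariate, and pools left out; those on the Hsph1 exon were chosen after seeing the data. The fit was tested on simulated data. Genes named outside the members were up to 3 called genes with the smallest p from each list, or 1 where none was called, the markers, and the 6 nearest profiles (mean log2 CPM at least 3). The members and lists were chosen with earlier results of these data known.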

Additional observations from a re-analysis of the deposited data

Results flagged for a closer look

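Within each fraction, 32 groups of 5 values were checked for a library far from the other 4, and 6 had one. Chance alone gives about 1 in 20 independent groups. These groups are not independent, since several use the same Hspa1a and Hspa1b reads, so the 6 cannot be weighed against that rate. In CD90- libraries pool 4 was far above the others for Hspa1a+Hspa1b, with 909 CPM against 218 to 399 CPM, for Hspa1b alone, with 541 CPM against 120 to 221 CPM, and for Hsp90aa1, with 766 CPM against 321 to 445 CPM. This library also had the highest mitochondrial rRNA share (84.4%) and the fewest nuclear protein-coding counts (3.71 M). In CD90+ libraries pool 3 was far below the others for Hspa1b, with 166 CPM against 422 to 526 CPM, and for the ratio of Hspa1a+Hspa1b to Hspa8, with 0.228 against 0.812 to 0.832. The ratio of Hspd1 to Hspe1 was 4.24 in CD90+ pool 5, against 2.48 to 2.91 in the other CD90+ libraries.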

How the results depend on the processing

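The number of genes called, 1978, was 965 without the replicate block, 3430 with DESeq2, 0 with the share of mitochondrial rRNA as a covariate (edgeR; 880 at an unadjusted p under 0.05), 541 without pools 4 and 5, and 675 to 2019 with a pool left out. Of the 9 units, all called ones being lower, 1 was called. There were 0 without the block or with the covariate, 2 with the pair split, and 0 to 2 with a pool left out (0 without pool 1 or pool 2). There were 3 with DESeq2, with limma-voom and with no filter (Hspb1, Dnajb1 and Hspa1a+Hspa1b each time). With no filter the 9 units had nearly equal SEs, 0.184 to 0.204, so its calls take little account of each gene's own spread.

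The Hspa1a+Hspa1b log2 fold kept its sign in all 16 other values, the pair's 2 genes apart included, and its call in 12; it was -0.94 without the block, -2.17 with the covariate and -1.26 to -0.88 with a pool left out. Called genes of the 8 other lists numbered 17 lower and 1 higher. The lower ones were 3 without the block, 11 with the length offset, 0 with the covariate, 1 without pools 4 and 5, and 0 to 19 with a pool left out. The higher ones were 0 without the block, with the covariate or without pools 4 and 5, 4 with DESeq2 and with no filter, 2 with limma-voom, 3 on nuclear protein-coding genes, and 0 to 3 with a pool left out.

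Signs turned only for units with small folds. Hsp90aa1 was -0.011 with the length offset, -0.49 with the covariate, -0.086 without pools 4 and 5, and -0.041 (without pool 4) to 0.17 with a pool left out. Hsp90ab1 was -0.41 with the covariate and -0.064 without pools 4 and 5, and with the covariate Hspa8 was -0.053 and Hspd1 -0.077. The log2 ratio of Hsp90aa1 to Hsp90ab1 ran from -0.11 to 0.037 and that of Dnajb1 to Dnaja1 from -0.34 to 0.011 with a pool left out. The Hsph1-201 difference ran from -29.4 to -15.6 percentage points with a pool left out, and was -14.6 as a share of all Hsph1 reads. The cause of these changes was not tested, except that fewer pools and the covariate leave fewer residual degrees of freedom. With 5 pools, no exact test could pass 0.05.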

Other observations

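The reads of Hsp90aa1 lay partly on transcripts other than the main coding one. Hsp90aa1-206, annotated as a retained intron, took 24.5% ± 5.79 of the gene's estimated reads in CD90- and 25.4% ± 4.68 in CD90+ libraries (SD, n = 5 each). Hsp90aa1-202 took 19.8% ± 2.24 in CD90- and 14.8% ± 4.55 in CD90+ libraries (exact paired permutation p = 0.125). Hspa8-201, the reference coding transcript of that gene, took 57.3% ± 2.58 in CD90- and 52.3% ± 4.82 in CD90+ libraries (exact paired permutation p = 0.188). None of the 16 transcripts compared passed adjustment.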
